A study of Mus musculus with 27 samples.

Results

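Heat-shock proteins and J-domain cochaperones were followed by RNA-seq in 27 libraries made from CD8+ T cells that had been sorted from MC38 tumours, a mouse colon adenocarcinoma model. Genes of the HSP70, HSP110, small heat-shock and chaperonin families and of the Dnaja, Dnajb and Dnajc families were taken by symbol, without pseudogenes, where the mean over libraries reached 5 CPM (a gene's counts scaled to a common library total). They were 50 of the 47729 genes in the count table, with 15 Hsp genes and 35 Dnaj genes. Another 19 genes with matching symbols lay under 5 CPM, and 4 of these had no count in any library. Dnajc16 at 6.10 CPM and Hspb6 at 6.32 CPM were just inside the limit, and Dnajc12 at 4.40 CPM and Dnajc27 at 3.30 CPM just outside it. The 50 genes fell into 9 that textbooks count as heat-inducible, 6 that serve or respond to stress of the endoplasmic reticulum, and 35 counted here as constitutive.

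Tumour-bearing mice were treated with Tri, a combination immunotherapy called TCT in the series text, or with Iso, the isotype control; which agents make up Tri is not stated in the labels. Live cells stained for CD45, CD3 and CD8 were separated by PD-1, a receptor that restrains activated T cells, and by KLRG1, which marks late effector cells. Tri treatment gave 5 PD1+KLRG1+, 5 PD1+KLRG1-, 4 PD1-KLRG1+ and 5 PD1-KLRG1- libraries, and Iso treatment gave 4 PD1-KLRG1+ and 4 PD1-KLRG1- libraries. The PD1+ libraries analysed here all come from Tri treatment. The labels state neither age nor sex, and their strain entry names MC38. Nothing in the labels says whether libraries of a group came from separate mice, so p-values measure the spread between these libraries, which may be technical.

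HSP70 proteins bind unfolded stretches of client proteins and let go of them in a cycle driven by ATP. J-domain proteins bring clients to HSP70 and start ATP hydrolysis, and nucleotide exchange factors such as HSP110 end the cycle. Heat and other protein-damaging stress raise a subset of these genes through the factor HSF1, while unfolded proteins in the endoplasmic reticulum raise another subset through ATF6 and XBP1; the rest are expressed at all times for folding, import into organelles and splicing.

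The promoters differed in motif content by class. Windows from 250 bases before to 50 after the start site, from RefSeq on GRCm38.p6, were found for 42 of the 50 genes. They were searched on both strands for pairs of inverted heat-shock units, GAANNTTC or TTCNNGAA, which may overlap each other, and for the endoplasmic reticulum stress element, which is CCAAT followed after 9 bases by CCACG. A gene can have several windows and was counted if any of them matched. A heat-shock pair was present for 8 of 9 heat-inducible genes (88.9%), 2 of 28 constitutive genes with a window (7.14%, Dnajb6 and Hspb6) and 1 of 5 endoplasmic reticulum genes, against 17% of all 27025 genes with a window. Counted by window, the pair was in 9 of 16 heat-inducible windows (56.2%) and 3 of 36 constitutive windows (8.33%), against 15.1% of all 32851 windows. The endoplasmic reticulum stress element was present for 2 of 5 endoplasmic reticulum genes, Hspa5 and Dnajc3, against 0.137% of all genes. The 8 genes are not 8 separate sequences: Hspa1a and Hspa1b have nearly the same window, and Hspd1 and Hspe1 share theirs in part. The class was drawn by known heat induction, so its motif share is a description and not a test. A match describes letters and is not a measured binding site.

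Windows are shown for the inducible HSP70 pair, for the HSP10 gene, for Hsph1 as the heat-inducible gene that passed the test in a comparison, for Hspa5 and for Dnajc15, which was called under every alternative run. Each reads 5′ to 3′. Capitals mark the heat-shock pairs or, in Hspa5, the endoplasmic reticulum stress element; Dnajc15 held neither motif.
Hspa1a, chr17:34972107-34972406, minus strand: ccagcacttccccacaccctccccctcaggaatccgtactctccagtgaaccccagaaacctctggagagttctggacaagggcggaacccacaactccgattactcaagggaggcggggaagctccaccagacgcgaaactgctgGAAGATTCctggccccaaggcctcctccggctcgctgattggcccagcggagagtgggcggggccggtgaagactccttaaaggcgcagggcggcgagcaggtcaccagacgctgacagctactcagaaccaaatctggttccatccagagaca
Hspa1b, chr17:34959189-34959488, minus strand: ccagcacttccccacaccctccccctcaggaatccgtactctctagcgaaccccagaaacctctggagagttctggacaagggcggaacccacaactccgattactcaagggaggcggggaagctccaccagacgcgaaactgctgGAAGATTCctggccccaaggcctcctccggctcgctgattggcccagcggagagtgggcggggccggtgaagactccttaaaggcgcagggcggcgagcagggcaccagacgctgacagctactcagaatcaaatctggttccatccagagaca
Hspe1, chr1:55087898-55088197, plus strand: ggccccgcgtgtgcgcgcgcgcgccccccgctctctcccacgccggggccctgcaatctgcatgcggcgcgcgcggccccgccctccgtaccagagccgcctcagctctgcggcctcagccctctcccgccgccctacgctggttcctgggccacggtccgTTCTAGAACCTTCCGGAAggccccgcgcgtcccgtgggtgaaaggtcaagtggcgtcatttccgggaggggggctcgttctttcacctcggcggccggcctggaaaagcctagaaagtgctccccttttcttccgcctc
Hsph1, chr5:149636266-149636565, minus strand: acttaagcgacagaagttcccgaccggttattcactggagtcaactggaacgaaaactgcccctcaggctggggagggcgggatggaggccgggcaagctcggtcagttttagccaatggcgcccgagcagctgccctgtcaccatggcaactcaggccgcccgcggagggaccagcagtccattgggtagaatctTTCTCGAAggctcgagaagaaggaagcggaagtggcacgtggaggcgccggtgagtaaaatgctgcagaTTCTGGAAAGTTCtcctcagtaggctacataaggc
Hspa5, chr2:34771840-34772139, plus strand: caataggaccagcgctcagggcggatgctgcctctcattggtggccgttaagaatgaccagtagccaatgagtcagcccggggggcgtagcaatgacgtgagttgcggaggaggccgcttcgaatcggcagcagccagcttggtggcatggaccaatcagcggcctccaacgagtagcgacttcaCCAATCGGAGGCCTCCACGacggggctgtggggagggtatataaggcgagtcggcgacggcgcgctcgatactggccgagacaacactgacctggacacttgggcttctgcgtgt
Dnajc15, chr14:77874868-77875167, minus strand: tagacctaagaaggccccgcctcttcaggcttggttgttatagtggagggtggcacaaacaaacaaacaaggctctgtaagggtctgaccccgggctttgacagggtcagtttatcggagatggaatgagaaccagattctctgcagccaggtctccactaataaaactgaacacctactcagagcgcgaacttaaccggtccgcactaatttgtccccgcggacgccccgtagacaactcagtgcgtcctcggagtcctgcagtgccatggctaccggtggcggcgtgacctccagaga
The windows of Hspa1a and Hspa1b differed at 4 of 300 bases and carried the same pair at position -104 from the start site. The Hspe1 window overlaps that of Hspd1, which lies on the other strand, so the chaperonin genes share 3 overlapping pairs. No pair was found in the window of Dnajb1.

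Hspa8, the constantly expressed cytosolic HSP70, had the highest level of the 50 genes at a mean of 1943 CPM, followed by Hspa5, the HSP70 of the endoplasmic reticulum also called BiP, at 725 CPM, and Dnaja1, a J-domain partner of cytosolic HSP70, at 443 CPM. Per kilobase of exon, Hspa8 had 452 CPM, Hspa5 171 CPM, Dnajc9 85.2 CPM, Dnajc8 80.2 CPM, Hspd1 73.5 CPM and Hspa1b 62.4 CPM. Together the 50 genes took between 0.537% and 0.811% of a library's counts. Counts of several of them are uncertain where other genes hold the same sequence. Of the 50-base windows along the transcripts, 67.3% were shared with other genes for Hspa8, 62.3% for Hspa1b, 60.3% for Hspa1a, 39.7% for Hspd1 and 36.1% for Hspe1. Annotated genes on the other strand overlap 23 of the 50 genes, and no label states whether counting used strand.

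Iso PD1-KLRG1+ replicate 3 held 93198 counts, and the other libraries held 6991521 to 26284630. The Iso PD1-KLRG1+ libraries stood apart: 16.3% ± 9.08 (SD, n = 4) of 6951 well-expressed genes had no count in them, and 9 to 20 of the 50 chaperone genes had none. In the other groups 0 to 4 of the 50 had none. Replicate 4 of Iso PD1-KLRG1+ also had 11434 CPM over 15 myeloid markers, 3283 CPM over 12 tumour and stroma markers, and 8.51% mitochondrial counts. Replicate 2 of that group had 515 CPM over the tumour and stroma markers, and no library of the other groups had more than 125 CPM. The share without a count was 3.41% in Tri PD1-KLRG1- replicate 5, and 2.55%, 3.57% and 2.53% in Tri PD1+KLRG1+ replicates 1, 2 and 3. The alternative called without the 3 libraries that stand apart drops Tri PD1-KLRG1- replicate 5 together with replicates 3 and 4 of Iso PD1-KLRG1+, and keeps every Tri PD1+KLRG1+ library. Of Iso PD1-KLRG1+ it keeps only replicates 1 and 2. Summed myeloid markers were 216 to 297 CPM in Tri PD1-KLRG1+ libraries and 215 to 11434 CPM in Iso PD1-KLRG1+ libraries; they were 288 to 661 CPM in Tri PD1-KLRG1- libraries and 884 to 4707 CPM in Iso PD1-KLRG1- libraries. CD8 lineage genes were present in all groups, with Cd8a between 743 and 2435 CPM over all libraries. In bulk samples, fewer cells of a type and less RNA per cell cannot be told apart.

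An RNA-number suffix stands in the names of Tri replicates 4 and 5 and Iso replicate 4, and this difference in naming was a term of the model. Each of 7 comparisons was tested with edgeR's quasi-likelihood F test on 14059 genes, with Benjamini-Hochberg adjustment over all of them, and a gene was called at an adjusted p under 0.05. All 50 genes passed the count filter. Shares of all genes called are those of this edgeR fit. None were taken for DESeq2 or another alternative, so their counts of called genes have no share beside them. The suffix itself was tested after the values had been seen. It gave 0 calls among the 50 genes by edgeR, against 0.982% of all genes, with 0.128% higher and 0.854% lower in suffixed libraries. An unadjusted p under 0.05 was found for 6 of the 50 genes and for 1386 of all 14059 genes. DESeq2 was not run for this term. Comparisons that share a group are not independent of each other.

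**Figure D1:**
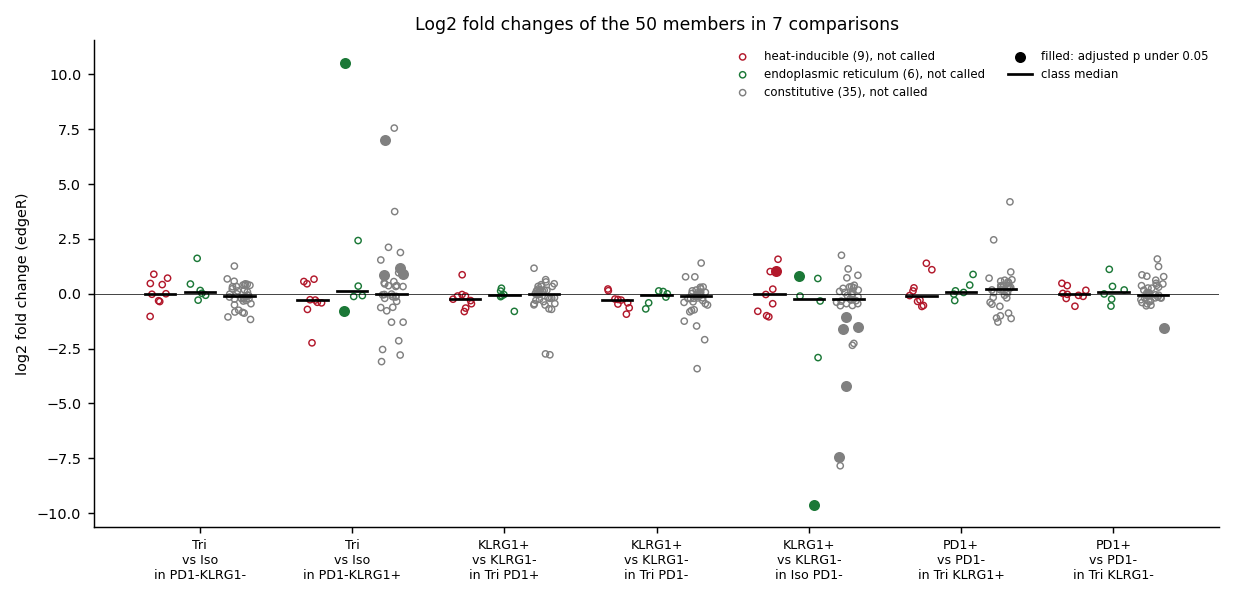
Log2 fold changes (vertical axis, edgeR) of the 50 chaperone genes in the 7 comparisons (horizontal axis), split by class, with filled points for genes called and a bar for the class median. Most points lie near 0, calls cluster in both comparisons that use Iso PD1-KLRG1+, and the points near 10.54 and -9.62 are Hspa13, whose fitted values depend on the prior count because Iso PD1-KLRG1+ had no count of it.

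Dnajc15 fell in PD1+KLRG1- cells of Tri-treated tumours, against PD1-KLRG1- cells. It encodes a J-domain protein of the inner mitochondrial membrane, also called MCJ, which in mice restrains respiratory complex I. The gene lies on GRCm38 chr14:77820681-77875125, minus strand. Its levels were 119, 103, 91.3, 76.2 and 136 CPM in the Tri PD1+KLRG1- libraries, against 348, 241, 408, 219 and 302 CPM in the Tri PD1-KLRG1- libraries. Every PD1+ library was lower than every PD1- library. The log2 fold change was -1.56 ± 0.26 (SE) with an edgeR adjusted p of 0.000641, and the call held under every alternative run, with an adjusted p of up to 0.0191. Dnajc15 was the only one of the 50 genes called in this comparison, against 1.56% of all genes tested and 0.939% called lower.

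The difference in Dnajc15 was present with and without the suffix: the means of log2(CPM + 1) differed by -1.63 in the libraries without the suffix (n = 3 and 3) and by -1.33 in those with it (n = 2 and 2). In KLRG1+ cells, Dnajc15 had 185, 133, 136, 125 and 145 CPM in Tri PD1+KLRG1+ libraries, against 197, 336, 336 and 191 CPM in Tri PD1-KLRG1+ libraries. These libraries did not overlap either, but the edgeR test across all genes gave a log2 fold change of -0.89 ± 0.27 (SE) with an adjusted p of 0.122. DESeq2 gave an adjusted p of 0.0350, and over the alternatives of this comparison that were not leave-one-out fits the edgeR value ran from 0.0428, without the Iso PD1-KLRG1+ libraries, to 0.271, without a count filter. Whether the PD1 difference depends on KLRG1 was tested by an interaction, in which 0 of the 50 genes and 0.0% of all genes were called by edgeR and 0 of the 50 by DESeq2. At an unadjusted p under 0.05 edgeR gave 1 of the 50, Dnajc5, against 4.5% of all genes. Under Iso, Dnajc15 had 295, 205, 118 and 141 CPM in PD1-KLRG1+ libraries and 271, 339, 298 and 170 CPM in PD1-KLRG1- libraries.

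**Figure D2:**
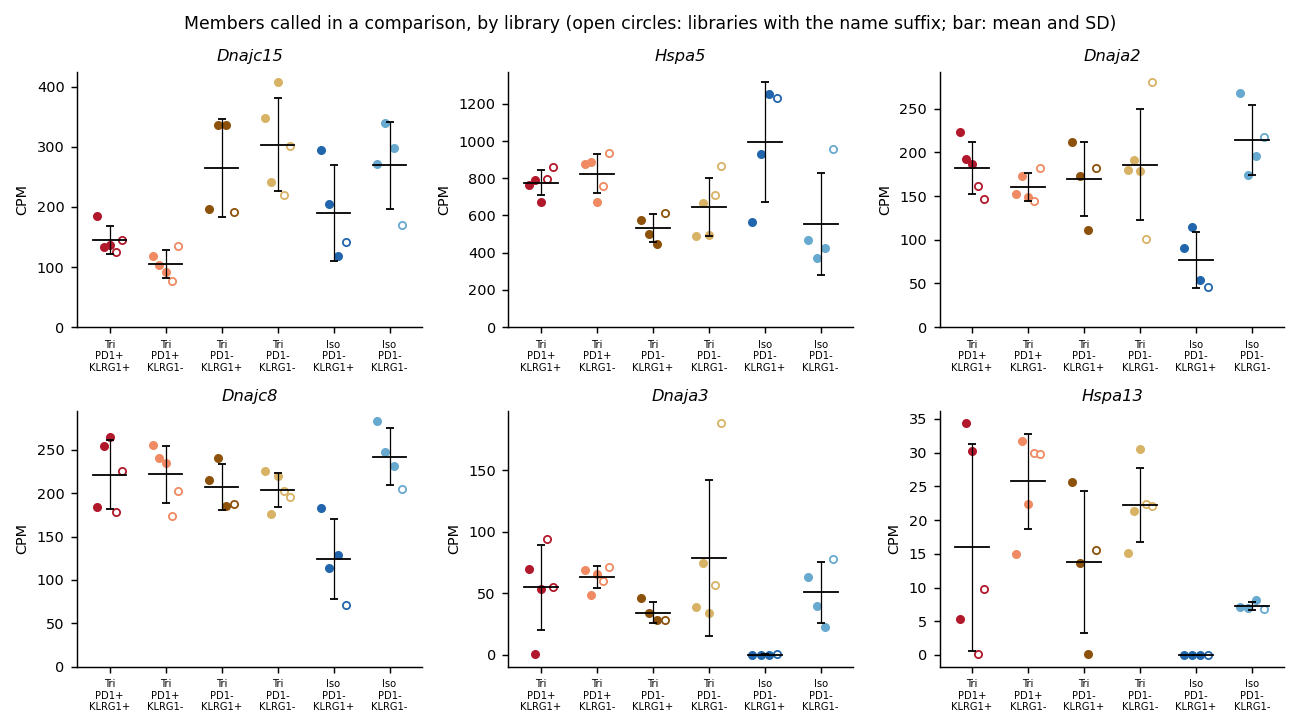
CPM (vertical axes) of 6 genes called in at least 1 comparison, for each library of the 6 groups (horizontal axes), with open circles for libraries with the name suffix and bars for the mean and SD. Dnajc15 is lower in all PD1+ libraries than in the Tri PD1- libraries, while Dnaja3 and Hspa13 are at or near 0 in the Iso PD1-KLRG1+ libraries.

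Between PD1+KLRG1+ and PD1-KLRG1+ cells under Tri, edgeR called 0 of the 50 genes, against 1.2% of all genes, with 0.491% higher and 0.711% lower. At an unadjusted p under 0.05 edgeR had 5 of the 50, against 11.2% of all genes, and DESeq2 called 4. Beside Dnajc15 these were Dnajc5, Dnajb14, Dnajb2 and, by edgeR only, Dnajb6. Dnajc5, a J-domain protein of secretory vesicles also known as cysteine string protein, had 52.5, 131, 144, 150 and 76.5 CPM in Tri PD1+KLRG1+ libraries, against 183, 218, 183 and 244 CPM in Tri PD1-KLRG1+ libraries. Its libraries did not overlap, and the edgeR adjusted p was 0.0837 with a log2 fold change of -1.01 ± 0.28 (SE). DESeq2 gave it an adjusted p of 0.0257.

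With all libraries in the fit, edgeR called none of the heat-inducible genes in the 4 comparisons of KLRG1 or PD-1 within Tri or in Tri against Iso. Dnaja1 was called with a log2 fold change of -0.57 (adjusted p = 0.0254) between PD1+KLRG1- and PD1-KLRG1- cells when only those groups entered the fit. It was also called with 1.12 (adjusted p = 0.0297) between Tri and Iso in PD1-KLRG1+ cells without Iso PD1-KLRG1+ replicate 1. The class holds the inducible HSP70 genes Hspa1a and Hspa1b, the exchange factor Hsph1, the J-domain genes Dnajb1, Dnajb4, Dnaja1 and Dnaja4, and the mitochondrial chaperonin genes Hspd1 and Hspe1. In PD1-KLRG1- cells, Tri against Iso, edgeR called 0 of the 50 genes and DESeq2 also 0, against 0.804% of all genes, with 0.263% higher and 0.541% lower. An unadjusted p under 0.05 was found for 3 of the 50, against 8.0% of all genes. Of the 9 heat-inducible genes, 4 had positive and 5 negative log2 fold changes, with a median of -0.00073, against a median of -0.0869 over all genes.

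Hspa1a and Hspa1b, which share most of their sequence, are read most safely as a sum. The sum was 414, 510, 359, 234 and 113 CPM in the Tri PD1-KLRG1- libraries, against 203, 72.0, 272 and 186 CPM in the Iso PD1-KLRG1- libraries. The 3 Tri libraries without the name suffix lay above every Iso library, and the remaining Tri libraries lay within the Iso range. Accordingly the means of log2(sum + 1) differed by 1.41 without the suffix (n = 3 and 3) and by -0.19 with it (n = 2 and 1). The edgeR test gave Hspa1a a log2 fold change of 0.89 ± 0.55 (SE) with an adjusted p of 0.882, and Hspa1b 0.71 ± 0.46 with an adjusted p of 0.935.

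The sum of Hspa1a and Hspa1b was 206, 269, 266, 169 and 152 CPM in Tri PD1+KLRG1+ libraries, against 398, 598, 248, 252 and 262 CPM in Tri PD1+KLRG1- libraries. The KLRG1+ libraries were lower on average, and the ranges overlapped. It was 338, 243, 242 and 189 CPM in Tri PD1-KLRG1+ libraries. In Iso PD1-KLRG1+ libraries the sum spread from 10.7 CPM, a single count in the library of 93198 counts, to 559 CPM. Without that library, Hspa1b was called between the KLRG1 gates under Iso, with a log2 fold change of 1.34 and an edgeR adjusted p of 0.0205, against 1.01 and 0.183 with it.

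Dnaja1 had 486, 734, 517, 629 and 795 CPM in Tri PD1-KLRG1- libraries, against 497, 350, 451 and 451 CPM in Iso PD1-KLRG1- libraries. Only 1 Tri library lay within the Iso range, and the log2 fold change was 0.47 ± 0.34 (SE, edgeR adjusted p = 1.00). Hspe1, which encodes the HSP10 lid of the chaperonin, had 84.1, 59.5, 78.8, 41.4 and 54.0 CPM in Tri PD1-KLRG1- libraries, against 91.9, 186, 171 and 73.3 CPM in Iso PD1-KLRG1- libraries. Its log2 fold change was -1.04 ± 0.42 with an edgeR adjusted p of 0.415. Hspd1, the HSP60 gene that shares its promoter, had a log2 fold change of -0.32 ± 0.23 with an adjusted p of 1.00. Constitutive Hspa9, the mitochondrial HSP70, had 99.3 ± 45.9 CPM in Tri PD1-KLRG1- libraries and 213 ± 85.8 CPM in Iso PD1-KLRG1- libraries (SD, n = 5 and 4), with an edgeR adjusted p of 0.319.

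Dnajb1, the J-domain partner induced with HSP70 on heat, had 132, 187, 181, 140 and 57.4 CPM in Tri PD1-KLRG1- libraries, against 140, 123, 143 and 135 CPM in Iso PD1-KLRG1- libraries. The Tri libraries lay on both sides of the Iso range. In the library of 93198 counts, Dnajb1 and the sum of Hspa1a and Hspa1b were both at 10.7 CPM, which is a single count there. Dnaja4, a further J-domain partner of HSP70, had 124, 0, 193 and 159 CPM in Iso PD1-KLRG1+ libraries, against 35.4, 11.9, 39.7 and 63.0 CPM in Iso PD1-KLRG1- libraries. Replicate 2 had no count of it and the other KLRG1+ libraries lay above all KLRG1- libraries, and the gene was not called.

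**Figure D3:**
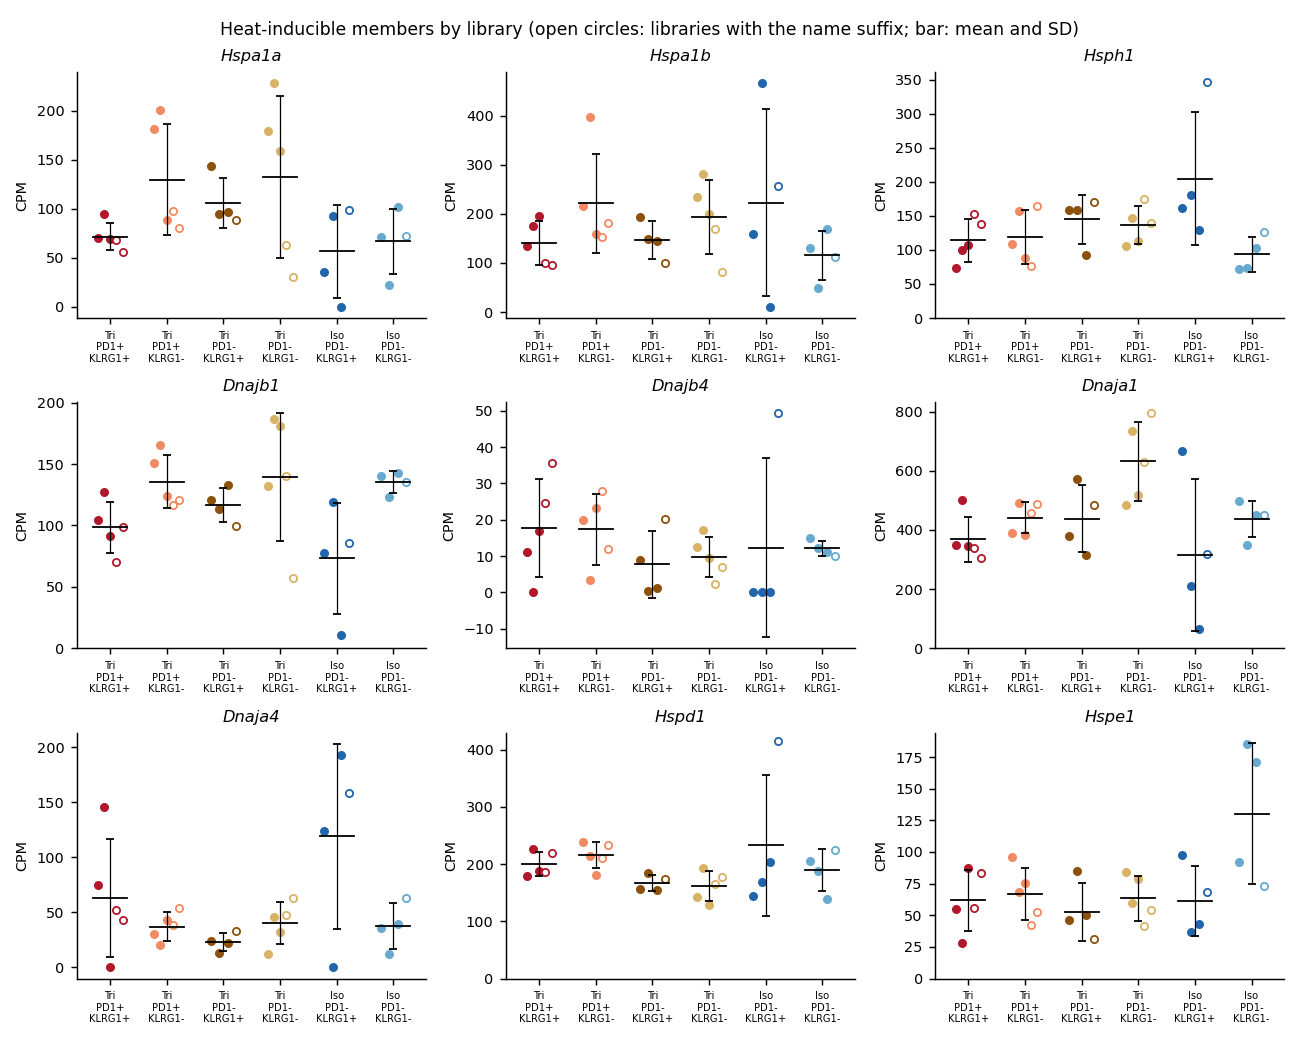
CPM (vertical axes) of the 9 heat-inducible genes in each library of the 6 groups (horizontal axes), with open circles for libraries with the name suffix and bars for the mean and SD. Groups overlap for most genes, and Hspa1a in Tri PD1-KLRG1- is 159 CPM or more in the filled circles and 63.5 CPM or less in the open ones.

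The balance of the classes was described by the log2 ratio of summed CPM of heat-inducible to constitutive genes. Under Tri it averaged -1.92 ± 0.14 for PD1+KLRG1+, -1.73 ± 0.13 for PD1+KLRG1-, -1.83 ± 0.13 for PD1-KLRG1+ and -1.66 ± 0.18 for PD1-KLRG1- cells (SD over libraries). Under Iso it averaged -1.74 ± 0.46 for PD1-KLRG1+ and -2.0 ± 0.13 for PD1-KLRG1- cells. The ratio was negative in each group's mean, and its sign follows from how the classes were drawn. It sets 9 genes against 35, of which Hspa8 alone averaged 1943 CPM, against 1297 CPM for the heat-inducible sum. The largest difference was 0.34, Tri against Iso in PD1-KLRG1- cells, with a pooled SD of 0.16. The per-library values were -1.71, -1.37, -1.67, -1.68 and -1.88 for Tri PD1-KLRG1- cells, against -1.97, -2.12, -1.83 and -2.08 for Iso PD1-KLRG1- cells. Of the 5 Tri libraries, 4 lay above every Iso library.

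Split by name, that difference was 0.39 where the suffix was absent (n = 3 and 3) and 0.30 where it was present (n = 2 and 1). It depended on where single abundant genes were placed: with Hspa8 counted as inducible it was 0.04, with Hspd1 and Hspe1 counted as constitutive 0.58, and as the difference of median log2 fold changes per class 0.08. The heat-inducible sum averaged 1508 CPM in Tri and 1219 CPM in Iso PD1-KLRG1- libraries. Of these, Hspa1a and Hspa1b together gave 326 and 183 CPM. The constitutive sum averaged 4739 CPM in Tri and 4856 CPM in Iso. Library measures moved with the contrast. Mitochondrial counts were 0.416% to 1.07% in Tri PD1-KLRG1- libraries, against 1.37% to 3.62% in Iso PD1-KLRG1- libraries, without overlap, and ribosomal protein counts averaged 2.67% ± 0.802 in Tri and 6.77% ± 3.30 in Iso (SD, n = 5 and 4). Summed immediate-early genes, markers of recent stimulation or handling, were 1649 to 2084 CPM in Tri PD1-KLRG1- libraries, against 2201 to 3249 CPM in Iso PD1-KLRG1- libraries. The part of these measures in the class balance was not tested. KLRG1+ against KLRG1- cells differed by -0.20 within Tri PD1+ cells (pooled SD 0.14) and by -0.17 within Tri PD1- cells (pooled SD 0.16).

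**Figure D4:**
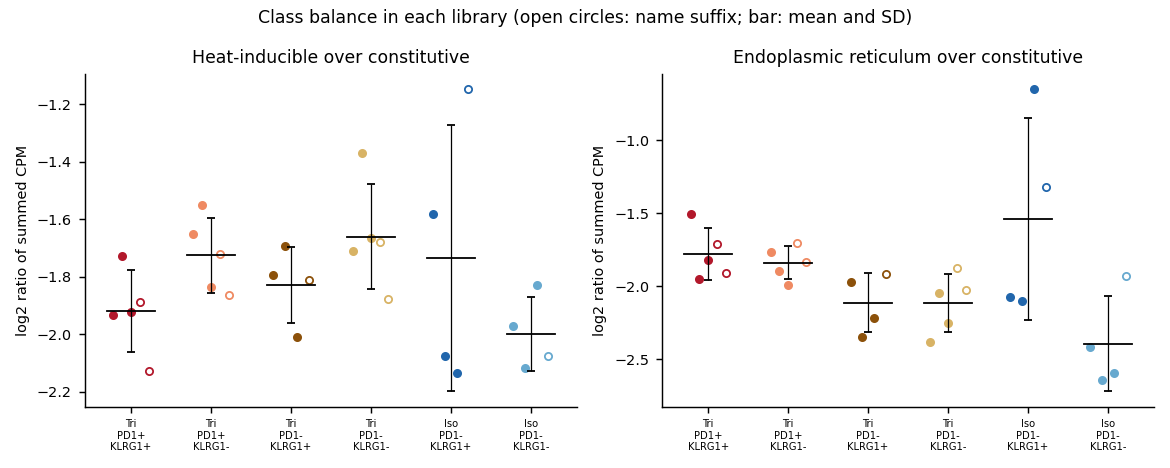
Log2 ratio of summed CPM (vertical axes) of heat-inducible (left) and endoplasmic reticulum genes (right) to constitutive genes, for each library of the 6 groups (horizontal axes), with open circles for libraries with the name suffix and bars for the mean and SD. In Tri PD1-KLRG1- 4 of 5 libraries have a higher heat-inducible ratio than every Iso PD1-KLRG1- library, and the Iso PD1-KLRG1+ libraries spread most.

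Within Tri-treated tumours no difference by KLRG1 was detected for any of the 50 genes. In PD1+ cells, KLRG1+ against KLRG1-, edgeR called 0 of the 50 genes and DESeq2 0, with none at an unadjusted p under 0.05, against 0.0569% of all genes called, 0.0285% higher and 0.0285% lower. In PD1- cells the counts were the same, against 0.0% of all genes called. The shares of all genes at an unadjusted p under 0.05 were 6.6% in PD1+ cells and 4.8% in PD1- cells. Among heat-inducible genes, 8 of 9 had a negative log2 fold change in PD1+ cells with a median of -0.25, and 7 of 9 in PD1- cells with a median of -0.29; the medians over all genes were -0.0674 and -0.0137. Hspa1a had the lowest unadjusted p of the class in PD1+ cells, with a log2 fold change of -0.81 ± 0.51 (SE, edgeR adjusted p = 1.00).

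Under Iso, 8 of the 50 genes were called between KLRG1+ and KLRG1- cells, against 8.66% of all genes, and DESeq2 called 12. Higher in KLRG1+ were 2 genes (1.24% of all genes), Hspa5 and Hsph1, and lower were 6 (7.43%), Dnaja3, Dnaja2, Dnajc8, Hspa13, Dnajc19 and Dnajb12. The median log2 fold change was -0.19 over the 50 genes and -0.524 over all genes. These calls rest on the Iso PD1-KLRG1+ libraries described above. The share of well-expressed genes without a count was 9.81% to 29.4% in Iso PD1-KLRG1+ and 0.0% to 0.0863% in Iso PD1-KLRG1- libraries. Summed myeloid markers overlapped, at 215 to 11434 CPM in KLRG1+ and 884 to 4707 CPM in KLRG1- libraries. Summed tumour and stroma markers also overlapped, at 42.9 to 3283 CPM in KLRG1+ and 92.6 to 125 CPM in KLRG1- libraries. The part of these measures in the calls was not tested.

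Hsph1, which encodes the cytosolic HSP110 exchange factor, rose in Iso KLRG1+ cells and was the heat-inducible gene called. Its levels were 162, 180, 129 and 347 CPM in Iso PD1-KLRG1+ libraries, against 72.6, 73.8, 103 and 126 CPM in Iso PD1-KLRG1- libraries. The libraries did not overlap, with a log2 fold change of 1.05 ± 0.30 (SE) and an edgeR adjusted p of 0.0299. Without Iso PD1-KLRG1+ replicate 4, the library with the myeloid and stroma counts, the log2 fold change was 0.75 and the edgeR adjusted p 0.123. Without replicates 1, 2 or 4 of Iso PD1-KLRG1- the adjusted p was 0.0915, 0.0929 or 0.0623. DESeq2 called it with an adjusted p of 0.000195.

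Hspa5 had 565, 929, 1255 and 1233 CPM in Iso PD1-KLRG1+ libraries, against 466, 370, 424 and 958 CPM in Iso PD1-KLRG1- libraries. The ranges overlapped through replicate 4 of Iso PD1-KLRG1-. The log2 fold change was 0.79 ± 0.20 (SE) with an edgeR adjusted p of 0.0151, and without the 3 libraries that stand apart it was 0.47 with an adjusted p of 0.208. Hspa5 fell in Tri PD1-KLRG1+ libraries, with 576, 501, 447 and 615 CPM, against the Iso PD1-KLRG1+ libraries above. That log2 fold change was -0.79 ± 0.20 with an adjusted p of 0.0203, and without the 3 libraries it was -0.51 with an adjusted p of 0.198. Leaving out a single library also ended the Hspa5 call for replicate 1, 2 or 3 of Iso PD1-KLRG1- (adjusted p 0.0513, 0.0785 and 0.0547) and, in the Tri comparison, for Iso PD1-KLRG1+ replicate 4 or Tri PD1-KLRG1+ replicates 3 or 4 (0.0537, 0.0620 and 0.0684).

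Between Tri and Iso in PD1-KLRG1+ cells, 6 of the 50 genes were called, against 6.08% of all genes. Higher in Tri were 5 (5.46% of all genes), Dnaja3, Hspa13, Dnaja2, Dnajc8 and Dnajb6, and lower was 1 (0.619%), Hspa5. The median log2 fold change was -0.04 over the 50 genes and 0.338 over all genes. The comparison shares the Iso PD1-KLRG1+ libraries with the KLRG1 comparison under Iso, so both read the same low values.

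Dnaja3, a mitochondrial J-domain protein that partners the organelle's HSP70, had 46.2, 33.6, 28.4 and 28.3 CPM in Tri PD1-KLRG1+ libraries, against 0.143, 0, 0 and 0.753 CPM in Iso PD1-KLRG1+ libraries. Iso PD1-KLRG1- libraries had 63.3, 39.3, 22.5 and 78.2 CPM. The 4 Iso PD1-KLRG1+ libraries thus lay below all others except Tri PD1+KLRG1+ replicate 2, which had 0.466 CPM. The log2 fold change was 7.0 ± 1.15 (SE, edgeR adjusted p = 0.000364) for Tri against Iso in KLRG1+ cells, and -7.45 ± 1.16 (0.000186) for KLRG1+ against KLRG1- under Iso. Both kept their call without each library in turn, and with only the groups compared in the fit the adjusted p was 0.139 for Tri against Iso and 0.0362 under Iso. Annotated genes overlap Dnaja3, among them Coro7 and Vasn, and 1 of them lies on the other strand.

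Hspa13, an HSP70 of the endoplasmic reticulum that lacks a client-binding domain, had no count in the 4 Iso PD1-KLRG1+ libraries. Tri PD1-KLRG1+ libraries had 25.7, 13.7, 0.102 and 15.6 CPM of it, and Iso PD1-KLRG1- libraries 7.08, 6.89, 8.18 and 6.89 CPM. With the zero replaced by 3 counts for the whole group, a limit that covers counting error only, it was at least 157-fold higher in Tri PD1-KLRG1+ than in Iso PD1-KLRG1+ (edgeR adjusted p = 0.00229). In Iso PD1-KLRG1+ it was at least 82.7-fold lower than in Iso PD1-KLRG1- (adjusted p = 0.00310). Replicate 4 supplies most of the group's counts, and without it the bounds were 65.4-fold against Tri and 34.5-fold against Iso PD1-KLRG1-. In replicate 3, of 93198 counts, a single count is 10.7 CPM, above every Iso PD1-KLRG1- value, so the 0 of that library adds little. In PD1-KLRG1- cells Hspa13 had 15.1, 21.4, 30.5, 22.4 and 22 CPM in Tri libraries, all above the Iso values, with a log2 fold change of 1.61 ± 1.09 (SE) and an edgeR adjusted p of 0.965.

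Dnaja2, a cytosolic J-domain partner of Hspa8, and Dnajc8, a J-domain protein associated with the spliceosome, changed less. Dnaja2 had 212, 172, 111 and 183 CPM in Tri PD1-KLRG1+ libraries, against 90.8, 115, 53.6 and 46.4 CPM in Iso PD1-KLRG1+ libraries, and 267, 174, 196 and 218 CPM in Iso PD1-KLRG1- libraries. Only Tri replicate 3 lay within the range of Iso KLRG1+. Dnaja2 rose with a log2 fold change of 1.18 ± 0.29 (SE, edgeR adjusted p = 0.0155) in Tri against Iso, and fell by 1.52 on the log2 scale in KLRG1+ against KLRG1- cells under Iso (adjusted p = 0.00144). In the Tri comparison the adjusted p was 0.0522 without Iso PD1-KLRG1+ replicate 4 and 0.0683 without Tri PD1-KLRG1+ replicate 1.

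Dnajc8 had 215, 241, 185 and 188 CPM in Tri PD1-KLRG1+ libraries, against 183, 114, 129 and 71.2 CPM in Iso PD1-KLRG1+ libraries, and 284, 248, 231 and 205 CPM in Iso PD1-KLRG1- libraries. The Iso KLRG1+ libraries were below both other groups without overlap, narrowly so for replicate 1. The log2 fold change was 0.83 ± 0.21 (SE, edgeR adjusted p = 0.0169) in Tri against Iso and -1.07 ± 0.21 (0.00168) between the KLRG1 gates under Iso. In the Tri comparison the adjusted p was 0.0560 without Iso PD1-KLRG1+ replicate 4 and 0.0519 without Tri PD1-KLRG1+ replicate 1, and 0.0691 under RLE scaling. Between the KLRG1 gates the adjusted p of Dnajc8 was 0.0591 without a count filter and 0.0872 with only the groups compared.

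Dnajb6, a J-domain protein that holds back aggregation, had 342, 295, 252 and 266 CPM in Tri PD1-KLRG1+ libraries, against 234, 119, 140 and 149 CPM in Iso PD1-KLRG1+ libraries. The libraries did not overlap. Its log2 fold change was 0.89 ± 0.27 (SE) with an edgeR adjusted p of 0.0481, and RLE scaling gave 0.68 with an adjusted p of 0.127. Leaving out any 1 of 7 of the 8 libraries compared gave an adjusted p between 0.0578 and 0.159. In PD1-KLRG1- cells Dnajb6 had 311, 280, 288, 279 and 340 CPM in Tri libraries, against 237, 162, 160 and 216 CPM in Iso libraries. These did not overlap either, and the log2 fold change was 0.57 ± 0.26 with an adjusted p of 0.541.

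Dnajc19, which belongs to the import motor of the inner mitochondrial membrane, fell in KLRG1+ cells under Iso, with 14, 46.0, 32.2 and 42.5 CPM in Iso PD1-KLRG1+ libraries, against 109, 112, 135 and 70.2 CPM in Iso PD1-KLRG1- libraries. The libraries did not overlap, and the log2 fold change was -1.63 ± 0.41 (SE, edgeR adjusted p = 0.0112). Its adjusted p was 0.102 without a count filter and 0.228 with only the groups compared. Fxr1 overlaps Dnajc19 on the other strand. Dnajb12, a J-domain protein of the endoplasmic reticulum membrane, had 0.286, 3.07, 0 and 0 CPM in Iso PD1-KLRG1+ libraries, against 8.11, 18.1, 22.5 and 22.5 CPM in Iso PD1-KLRG1- libraries. A single count in Iso PD1-KLRG1+ replicate 3, of 93198 counts, is 10.7 CPM, above the lowest of the Iso PD1-KLRG1- values. The log2 fold change of Dnajb12 was -4.19 ± 1.23 with an edgeR adjusted p of 0.0310. That adjusted p was 0.0638 without Iso PD1-KLRG1+ replicate 1 and 0.0568, 0.0652 or 0.0514 without Iso PD1-KLRG1- replicates 2, 3 or 4.

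Dnajb4, a heat-inducible J-domain gene, depended on a single library. It had 8.84, 0.448, 1.22 and 20.3 CPM in Tri PD1-KLRG1+ libraries, against 0, 0, 0 and 49.3 CPM in Iso PD1-KLRG1+ libraries, and it was not called with all libraries in the fit; without Iso PD1-KLRG1+ replicate 4, the library with 49.3 CPM, its edgeR adjusted p was 0.0417. Without the 3 libraries that stand apart, 11 of the 19 gene calls over all comparisons and interactions remained; Dnaja2 and Dnajc8 between Tri and Iso then had adjusted p of 0.0574 and 0.0884.

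The difference between the KLRG1 effects under Tri and Iso was tested by an interaction in PD1- cells, in which 4 of the 50 genes were called, against 3.59% of all genes, and DESeq2 called 6. The values, as the KLRG1 log2 fold change under Tri minus that under Iso, were 6.62 for Dnaja3 (edgeR adjusted p = 0.00448), 1.07 for Dnajc8 (0.0326) and 1.40 for Dnaja2 (0.0446), and Hspa13 was called with an adjusted p of 0.0219. All 4 were low in Iso PD1-KLRG1+ libraries. Without the 3 libraries that stand apart 6 genes were called, among them Hspa4l, an HSP110 family member, with a difference of 6.80 and an adjusted p of 0.00174. That fit rests on replicates 1 and 2 alone for Iso PD1-KLRG1+, and each of them had no count of 9 of the 50 genes. Leaving out 1 of the 17 libraries in turn ended the call of Dnaja2 in 12 cases and of Dnajc8 in 8, with adjusted p of up to 0.111 and 0.0781, while Dnaja3 and Hspa13 kept theirs. Hspa5 had an interaction of -0.94 with an adjusted p of 0.0582, which was 0.0118 without Iso PD1-KLRG1+ replicate 1, 0.0113 without Iso PD1-KLRG1- replicate 4 and 0.00425 with DESeq2.

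Among the remaining endoplasmic reticulum genes, Dnajb11, Dnajb9, Dnajc3 and Dnajc10 were not called by edgeR with all libraries in the fit. DESeq2 called Dnajb11 (log2 fold change 0.85, adjusted p = 0.0253) and Dnajb9 (-2.67, adjusted p = 0.0438) between the KLRG1 gates under Iso. Dnajb11 and Dnajb9 are J-domain partners of BiP, Dnajc3 is the chaperone also known as p58IPK, and Dnajc10 is a disulfide reductase. Dnajb11 had 331, 86.6, 204 and 146 CPM in Iso PD1-KLRG1+ libraries, against 113, 80.8, 105 and 150 CPM in Iso PD1-KLRG1- libraries, with overlap. Dnajb9 had 0, 6.97, 0 and 0 CPM in Iso PD1-KLRG1+ libraries, against a lowest value of 9.91 CPM in the Iso PD1-KLRG1- libraries. A single count in Iso PD1-KLRG1+ replicate 3, of 93198 counts, is 10.7 CPM, so its 0 does not place that library below them. Without Iso PD1-KLRG1+ replicate 2, the library with 6.97 CPM, Dnajb9 had an edgeR adjusted p of 0.000513 between the KLRG1 gates, against 0.162 with it. Hspa5 averaged 776 ± 68.1 CPM in Tri PD1+KLRG1+ libraries and 535 ± 75.3 CPM in Tri PD1-KLRG1+ libraries (SD, n = 5 and 4), without overlap, and its edgeR adjusted p was 0.452. It averaged 825 ± 107 CPM in Tri PD1+KLRG1- libraries and 646 ± 157 CPM in Tri PD1-KLRG1- libraries (n = 5 each), with overlap and an adjusted p of 0.657. Dnajc10 averaged 94.2 ± 29.1 CPM in Tri PD1+KLRG1- libraries and 42.3 ± 17.5 CPM in Tri PD1-KLRG1- libraries, with an adjusted p of 0.626.

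Hspa8 was not called in any comparison. Under Tri it averaged 1674 ± 310 CPM for PD1+KLRG1+, 1922.5 ± 355 CPM for PD1+KLRG1-, 1769 ± 194 CPM for PD1-KLRG1+ and 2102 ± 203 CPM for PD1-KLRG1- cells, and under Iso 1976 ± 1014 CPM for PD1-KLRG1+ and 2246.5 ± 238 CPM for PD1-KLRG1- cells (SD). Every Tri mean lay within 1 SD of the Iso PD1-KLRG1+ mean, whose libraries spread most.

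Other folding genes, a list of 39 that holds the HSP90, CCT, BAG and HSF genes and their partners, were read beside them, and all 39 were tested. Between Tri and Iso in PD1-KLRG1+ cells, 1 rose and 2 fell: Bag2, a cochaperone that releases HSP70 clients, was 9.16 ± 4.78 CPM in Tri and had no count in Iso (edgeR adjusted p = 0.0136), Fkbp4, an HSP90 partner, fell to 115 ± 16.8 CPM in Tri, against 298 ± 134 CPM in Iso (0.0118), and Cct3, a subunit of the cytosolic chaperonin, fell to 191 ± 18.0 CPM, against 358 ± 123 CPM (0.0389; SD, n = 4 each). Between KLRG1+ and KLRG1- cells under Iso 0 rose and 2 fell, Bag2 and St13, an HSP70 cochaperone, which was 55.1 ± 8.86 CPM in KLRG1+ and 100 ± 13.6 CPM in KLRG1- libraries (0.0474). Over all genes, edgeR called 6.08% between Tri and Iso in PD1-KLRG1+ cells (5.46% higher, 0.619% lower). Between the KLRG1 gates under Iso it called 8.66% (1.24% higher, 7.43% lower). Both comparisons use the Iso PD1-KLRG1+ libraries described above. A single count in replicate 3 of that group is 10.7 CPM, above the Tri mean of Bag2. In the other 5 comparisons edgeR called 0 of the 39, against 0.0% to 1.56% of all genes. Between 0 and 6 had an unadjusted p under 0.05, against 4.8% to 11.2% of all genes. DESeq2 was not read for this list. Hsp90ab1, the constitutive cytosolic HSP90, averaged 984 ± 193 CPM in Tri PD1-KLRG1- libraries and 1683 ± 342 CPM in Iso PD1-KLRG1- libraries (n = 5 and 4), with an adjusted p of 0.133.

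Spread between libraries differed by group more than by class. The median SD of log2(CPM + 1) over the 35 constitutive genes was 0.27 in Tri PD1+KLRG1- and 1.65 in Iso PD1-KLRG1+, and over the 9 heat-inducible genes 0.48 and 1.52. Over all 9960 genes of at least 5 CPM it was 0.39 and 2.11 in the same groups.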

How the data were processed

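The authors deposited a table of raw counts, whole numbers per Ensembl mouse gene with 1 column per library and no normalisation. DESeq2 1.26.0 is named in the submitters' processing notes without a role; no aligner, counting tool, strand setting or genome build is named there. GENCODE M21 (GRCm38) supplied symbols for 47224 of 47729 IDs and gene positions, and RefSeq (GRCm38.p6) the promoter windows.

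Libraries were grouped by treatment and gates as labelled. Genes were kept by filterByExpr at a minimum count of 10 (14059 genes), scaled with TMM, and fitted with edgeR 4.0.16 in R 4.3.3 by robust quasi-likelihood on all 27 libraries; the terms were the 6 groups and the name suffix. The SE was taken as |log2 fold change|/√F. CPM use the deposited library totals, and ± is the SD between libraries unless SE is given. Floors are 3 counts over a group. The members, their classes and the lists were chosen with earlier results of these data known. Genes named were the heat-inducible and endoplasmic reticulum members, called members (at most 20 per comparison, by p), the 5 members of highest mean CPM, the 2 genes on each side of the CPM limit, and at most 4 called genes per comparison of the other folding genes; others named were chosen after their values were seen.

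Alternatives were RLE scaling, no count filter or a minimum of 50, no name-series term, only libraries without the suffix, a fit restricted to the groups compared, DESeq2 1.42.0, a replicate block, other class placements and leaving out each library. Leaving out the 4 Iso PD1-KLRG1+ libraries, or the 3 called apart in the text (replicates 3 and 4 of Iso PD1-KLRG1+ and replicate 5 of Tri PD1-KLRG1-), was added after the data had been seen. The replicate block had 1 term per replicate number, shared by Tri and Iso, in place of the name suffix. The procedure was tested on simulated data. Figures used matplotlib 3.10.9.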

Additional observations from a re-analysis of the deposited data

Results flagged for a closer look

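Over 162 combinations of a group of 4 or 5 libraries with a gene or a library measure, 12 held a library far from the rest of its group. The measures were the class ratios, the sum of the chaperone genes and that of Hspa1a and Hspa1b, and all 12 were genes. For normally distributed values chance alone sets apart about 1 in 20 groups. The rate for CPM values with zeros or skew was not measured, so the 12 cannot be set against it. Dnaja1 was 502 CPM in Tri PD1+KLRG1+ replicate 2, where the next value was 348.7 CPM. Dnaja3 was 188.4 CPM in Tri PD1-KLRG1- replicate 5, a library with 3.41% of well-expressed genes without a count. Dnajb11 was 252.4 CPM and Dnajb9 29.49 CPM in Tri PD1+KLRG1+ replicate 1. Dnajb12 was 3.068 CPM and Dnajb9 6.972 CPM in Iso PD1-KLRG1+ replicate 2, and Dnajb4 was 49.27 CPM in Iso PD1-KLRG1+ replicate 4. Hspa13 was 8.178 CPM in Iso PD1-KLRG1- replicate 3, close to the next value of 7.076 CPM. Hspa1a was 143.7 CPM in Tri PD1-KLRG1+ replicate 1, and Hspa1b was 397 CPM in Tri PD1+KLRG1- replicate 2. Hspa5 was 958.5 CPM in Iso PD1-KLRG1- replicate 4, and Hsph1 was lowest at 92.32 CPM in Tri PD1-KLRG1+ replicate 3.

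The KLRG1 effect in PD1- cells differed between Tri and Iso by the interaction test for 4 genes, with log2 differences of 6.621 for Dnaja3, 8.925 for Hspa13, 1.074 for Dnajc8 and 1.399 for Dnaja2. The fitted value of Hspa13 depends on the prior count, since Iso PD1-KLRG1+ had none of its counts.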

How the results depend on the processing

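Of 19 gene calls, the replicate block and a minimum count of 50 kept 19, DESeq2 18, no name-series term 17, RLE scaling 15, no count filter 10 and the libraries without the suffix 10; a fit of only the groups compared kept 6 of 18. For Tri against Iso in PD1-KLRG1+ cells the 6 calls became 10 with DESeq2, 0 with only the groups compared and 3 without suffixed libraries. For KLRG1 under Iso the 8 calls became 12 with DESeq2, 10 at a minimum count of 50, 10 without the 3 libraries that stand apart, 5 without a filter and 4 with only the groups compared. For PD-1 in Tri KLRG1+ cells the 0 calls by edgeR became 4 with DESeq2, 2 without the Iso PD1-KLRG1+ libraries and 1 without the 3 libraries that stand apart. For PD-1 in Tri KLRG1- cells 1 became 2 with only the groups compared, through Dnaja1. For the interaction of KLRG1 and treatment 4 became 6 with DESeq2, 6 without the 3 libraries that stand apart, 2 without a filter, 2 with only the groups compared and 1 without suffixed libraries. Shares of all genes called were not taken under these alternatives, so the counts cannot be set against them. The causes were not tested.

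Leaving out 1 library gave 4 to 8 calls for Tri against Iso in KLRG1+ cells, 5 to 12 for KLRG1 under Iso, 1 to 1 for PD-1 in KLRG1- cells, 2 to 7 for the interaction of KLRG1 and treatment, and 0 to 0 elsewhere. The 5 came without Iso PD1-KLRG1- replicate 2, the 7 without Iso PD1-KLRG1+ replicate 2, and 2 without 1 of replicates 1 and 2 of Iso PD1-KLRG1-, of replicates 1, 2 and 4 of Tri PD1-KLRG1+, or of replicates 2 and 3 of Tri PD1-KLRG1-. The class ratio difference between Tri and Iso in PD1-KLRG1- cells ran from 0.265 to 0.394, and was 0.0427 with Hspa8 as inducible, 0.583 with Hspd1 and Hspe1 as constitutive and 0.083 by class medians; for PD-1 in KLRG1+ cells the class medians gave -0.289, against -0.0930 from the sums. Without a library in turn the other ratio differences ran from -0.226 to 0.104 for Tri against Iso in KLRG1+, from -0.244 to -0.144, from -0.222 to -0.0946 and from 0.0666 to 0.396 for KLRG1 in Tri PD1+, Tri PD1- and Iso PD1-, and from -0.154 to -0.0410 and from -0.118 to 0.00854 for PD-1 in KLRG1+ and KLRG1-. Dnajb4 between Tri and Iso in KLRG1+ cells turned to 9.268 without the 3 libraries that stand apart and, over the fits that left out a library, ran from -0.9094 to 9.343, the highest without Iso PD1-KLRG1+ replicate 4.

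The replicate block left the counts at 6, 8, 1, 4 and 0. Because its terms join Tri and Iso libraries of the same number, it cannot show whether gates within a treatment are paired. Same-numbered libraries correlated between -0.111 and 0.284 in their deviations. The median was 0.058 for same numbers and -0.025 for different numbers under Tri, and 0.030 and -0.004 under Iso. These values are higher for same numbers with overlapping ranges, and do not settle whether libraries are paired. The labels do not say that numbers mark pairs, and the numbers were not taken as pairs. RLE scaling moved the median of all genes by -0.194 for Tri against Iso in KLRG1+ cells, 0.148 for KLRG1 under Iso, 0.102 for PD-1 in KLRG1+ cells and -0.171 for the interaction. The 93198 counts of Iso PD1-KLRG1+ replicate 3 limit what that library shows for genes of low level.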

Other observations

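Between libraries with and without the RNA-number suffix, Hspa5 had the smallest p of the 50 genes, with a log2 fold change of 0.39 ± 0.12 (SE) and an edgeR adjusted p of 0.111. For the sum of Hspa1a and Hspa1b, KLRG1+ against KLRG1- cells in Tri PD1+ differed by -0.67 on the log2(CPM + 1) scale both with and without the suffix. In Tri PD1- cells the same difference was 0.22 with the suffix (n = 1 and 2) and -0.64 without it (n = 3 and 3).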
